A study of Mus musculus with 24 samples.

Results

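The step from E11.5 to E12.5 (E, embryonic day) was followed in Sertoli cells, the supporting cells of the testis, sorted from mouse fetal gonads. Its members were the 6 XY libraries of these stages, 3 a stage, of 24 libraries in all. RNA was measured by bulk sequencing of polyadenylated transcripts. XY cells of both stages came from the SOX9-IRES-GFP line, in which a green fluorescent protein reports the Sox9 locus, and were collected by fluorescence-activated sorting. The libraries used as a comparison came from XX pre-granulosa cells of E11.5 and E12.5, 3 a stage, sorted from the Tg(Enh8-mCherry) line. Sex, line and fluorophore change together between XX and XY. Libraries were made from small numbers of sorted cells, with amplification of the cDNA. Whether the replicates came from separate embryos or pools is not stated, so p-values measure only the spread between these libraries.

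Sertoli cells arise in the XY gonad when the Y-linked gene Sry acts briefly in supporting cell precursors and its target Sox9 is maintained. They then enclose the germ cells in cords, secrete anti-Müllerian hormone (Amh), which removes the female duct, and send desert hedgehog and platelet-derived growth factor to the surrounding interstitial cells. Before this, the precursors descend from the epithelium over the gonad and share many genes in both sexes. A sort on a Sox9 reporter at E11.5 takes cells that have already begun to make this factor.

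The sequences just upstream of 3 genes are shown because these genes rose strongly at E12.5 and are named below. Each is the 250 bases before the start of the gene in RefSeq's annotation of GRCm38.p6, 5′ to 3′ on the strand of the gene. Cst9 encodes a cystatin secreted by Sertoli cells and lies on the plus strand (chr2:148834897-148835146). Miox encodes an inositol-degrading oxygenase, on the plus strand (chr15:89334223-89334472). Gjb2 encodes the gap junction protein connexin 26, on the minus strand (chr14:57104703-57104952). Capitals mark exact matches, on either strand, to short cores of SOX factors (AACAAT or ACAAAG), of NR5A1 (AAGGTCA) or of GATA factors (AGATAA or TGATAA).
Cst9: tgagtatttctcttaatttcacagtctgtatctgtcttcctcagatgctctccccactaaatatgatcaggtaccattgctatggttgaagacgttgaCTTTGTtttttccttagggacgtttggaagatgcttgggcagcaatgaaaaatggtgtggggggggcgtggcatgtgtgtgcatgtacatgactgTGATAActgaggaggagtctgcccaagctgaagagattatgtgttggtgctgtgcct
Miox: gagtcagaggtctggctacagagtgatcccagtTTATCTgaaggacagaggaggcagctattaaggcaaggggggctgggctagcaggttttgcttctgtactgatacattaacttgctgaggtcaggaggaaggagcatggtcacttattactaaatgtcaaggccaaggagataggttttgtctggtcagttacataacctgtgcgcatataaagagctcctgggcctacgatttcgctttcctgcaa
Gjb2: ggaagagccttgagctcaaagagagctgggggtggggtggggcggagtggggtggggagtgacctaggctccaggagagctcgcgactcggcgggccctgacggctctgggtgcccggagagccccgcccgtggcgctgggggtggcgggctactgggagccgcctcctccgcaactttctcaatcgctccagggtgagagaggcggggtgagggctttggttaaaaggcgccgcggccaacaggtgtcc

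The match of the SOX core in Cst9 began 152 bases upstream and that of the GATA core 57 bases upstream. Miox held a GATA match 217 bases upstream, and the window of Gjb2 held none of these letters. Such a match is a description of the letters and no binding site. Among the promoters of all tested genes in the table (12422), 16.9% held a SOX core, against 18.2% of 1134 genes called at least 2-fold higher and 18.6% of 1900 called at least 2-fold lower. The GATA cores were in 9.85%, 11.6% and 10.4% of these sets, and the NR5A1 core in 2.95%, 3.62% and 2.84%.

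The XY libraries held 35392435 to 37256881 counts at E11.5 and 23938921 to 26130209 at E12.5, and no pair of replicates agreed within counting noise. Values below are counts scaled to the library size (CPM, with TMM scaling), in the order of replicates 1, 2 and 3. Some libraries stood apart. Xist, which is expressed from XX cells, was at 0.272, 6.32 and 40.8 CPM at E11.5 and at no more than 0.14 CPM at E12.5. For scale, 5 sex-chromosome label genes, Xist among them, summed to 110, 71.4 and 92.1 CPM in the XX E11.5 libraries. The summed CPM of 17 interstitial markers was 1159, 1406 and 1883 at E11.5 against 147 to 178 at E12.5, highest in E11.5 replicate 3, and that of 13 mesonephric markers was 161 to 176 against 45.8 to 50.1. Sums of germ cell markers were 64.7 to 81.5 against 44.9 to 53.5 CPM, of endothelial markers 38.2 to 50.9 against 42.8 to 46.0, of erythroid markers 26.1 to 47.2 against 33.1 to 49.5, and of immune markers 3.12 to 5.09 against 3.92 to 5.25. Of 12 germ cell markers, 7 at E11.5 and 8 at E12.5 were under 1 CPM on average, Pou5f1 and Dazl among them, and the highest of the others were Kit and Utf1. Under this level were also 13 of 14 immune markers at both stages, and 9 of them were at 0 in every E12.5 library. At E12.5, replicate 1 held 1659 CPM of 24 mitosis genes where replicates 2 and 3 held 3250 and 3093. The part of these differences in the results below was not tested, and the counts of each list below are also given without E11.5 replicate 3 and E12.5 replicate 1, the libraries that stood apart. E11.5 replicate 2, with 6.32 CPM of Xist, stayed in those counts.

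**Figure D1:**
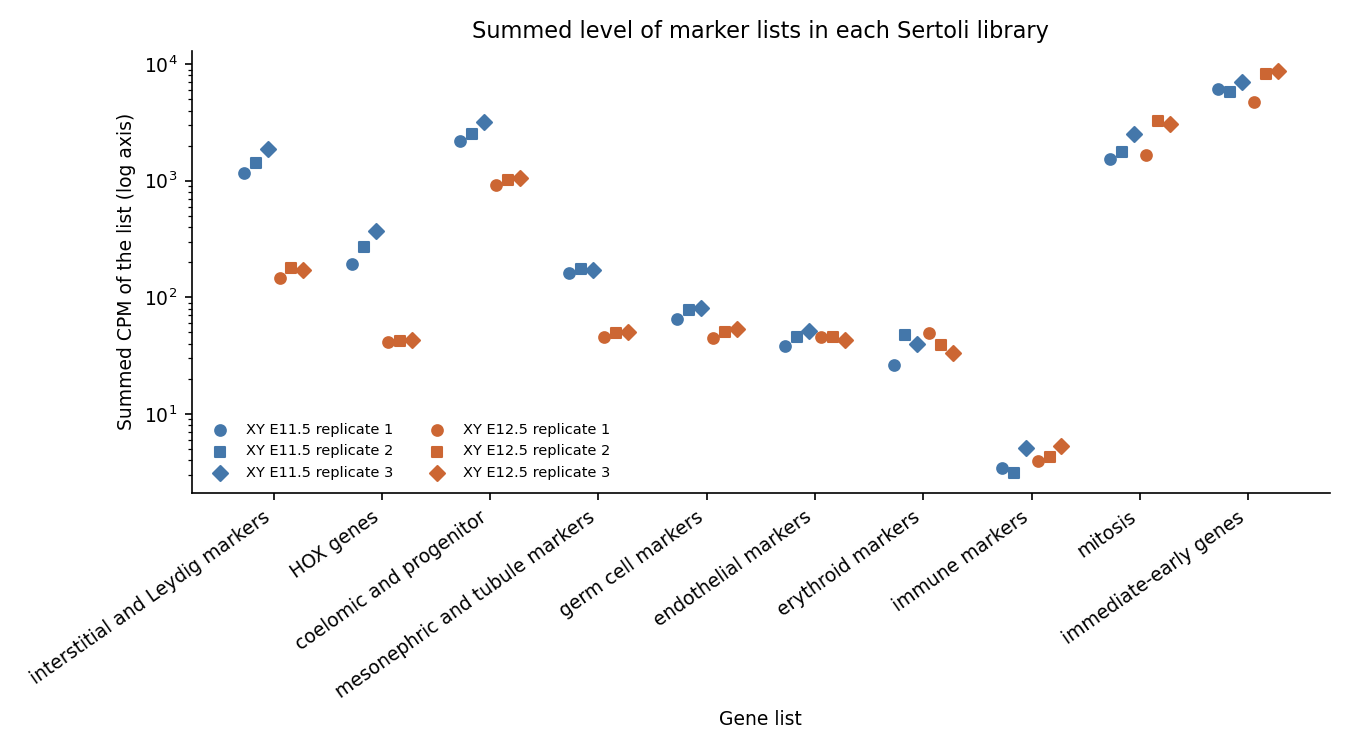
Summed CPM of 10 gene lists in each of the 6 XY libraries, on a log axis. Interstitial and mesonephric sums are lower in all 3 E12.5 libraries than in all 3 E11.5 libraries, with the interstitial sum highest (1883 CPM) in E11.5 replicate 3.

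Between E11.5 and E12.5, the sorted XY cells gained the secreted products and enzymes of Sertoli cells and lost transcripts of the gonadal precursors, the interstitium and the HOX clusters, while Sox9 itself was not called as changed. Of 16190 genes tested, 4386 (27.1%) were called higher at E12.5 and 4009 (24.8%) lower, at an adjusted p under 0.05 in edgeR's quasi-likelihood test, and the median log2 change of all genes was 0.03. With a change of at least 2-fold in addition, 1516 genes were higher and 2633 lower. The balance of the calls is not stable. Of the calls, 52.2% were higher in the fit reported and 52.3% with a replicate block, but under 50% in every other alternative tried: 44.4% to 46.7% when any single XY or XX library was left out, 45.3% after thinning, 48.1% to 49.9% with other filters or only the XY libraries compared, 47.0% with DESeq2 size factors, 47.2% with DESeq2, 33.9% to 35.3% with limma on TPM, 36.5% with the fold threshold and 31.3% with plain library totals, which moved the median log2 change to -0.20. Without both libraries that stood apart it was 46.0%, with 2918 genes higher and 3424 lower.

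Sertoli effector genes, the secreted factors and enzymes of the differentiated cell, were nearly all higher at E12.5. Of 34 tested, 31 rose (91.2%, beside 27.1% of all genes) and 2 fell (5.88%, beside 24.8%). The median log2 change was 2.47 beside 0.03 for all genes, and the 31 were each at least 2-fold higher. Without the libraries that stood apart, the counts were again 31 and 2, and 18 rose among the fewer genes with at least 10 counts in every library. The list was drawn up knowing this cell type's genes and is no independent evidence of their direction.

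Amh was at 23.4, 39.5 and 16.01 CPM at E11.5 and at 3826, 3859 and 3838 CPM at E12.5. The stages were far apart, and the E12.5 libraries lay within a narrow band. The log2 change was 7.19 (SE 0.49, adjusted p = 3.2e-10 in edgeR, n = 3 and 3), a 146-fold difference of means. Amh lies at chr10:80805240-80807679 (GRCm38.p6).

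Dhh, the desert hedgehog ligand, was at 88.3, 115 and 61.4 CPM at E11.5 and at 1597, 1461 and 1445 CPM at E12.5. It was thus already present before Amh reached its later level, and rose by 4.09 on the log2 scale (SE 0.22). Ptgds, the synthase of prostaglandin D2, a signal that promotes Sox9 activity in neighbouring cells, went from 28.5, 32.8 and 17.0 to 640, 589 and 620 CPM. That is a log2 change of 4.56 (SE 0.28), again with no overlap between the stages. Inha, the inhibin alpha subunit, was at 78.7, 88.5 and 83.4 CPM and then at 526, 484 and 479 CPM (log2 2.57, SE 0.11).

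Several genes were close to absent at E11.5. Mybpc3, a myosin-binding protein better known from heart muscle, had 0.435, 0.387 and 0.209 CPM at E11.5 and 66.5, 58.6 and 62.5 CPM at E12.5, a log2 change of 7.49 (SE 0.20). Hsd17b1, which reduces estrone to estradiol, went from 0.299, 0.258 and 0.0783 to 32.1, 32.5 and 34.8 CPM (log2 7.26). Its relative Hsd17b3, which makes testosterone from androstenedione and in the fetal testis is a Sertoli cell enzyme, was at 4.89, 5.29 and 4.28 and then at 170, 174 and 176 CPM (log2 5.17). Both enzymes of this last step of sex steroid synthesis were therefore separated between the stages by a wide gap in every library. Fshr, the receptor of follicle-stimulating hormone, was at or under the floor of 3 counts at E11.5 and at 2.63 to 3.64 CPM at E12.5, at least 37.8-fold higher.

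Defb19, a secreted beta-defensin of the testis, was at 5.54, 5.45 and 5.14 CPM at E11.5 and 316, 302 and 329 CPM at E12.5 (log2 5.88, SE 0.25). Cst9 was already high, at 162, 242 and 93.2 CPM, and rose to 1024, 874 and 899 CPM (log2 2.49). Clu, the secreted chaperone clusterin, rose from 152, 164 and 97.8 to 1308, 1079 and 1072 CPM (log2 3.06). E11.5 replicate 3 was the lowest E11.5 library for Amh, Dhh, Ptgds, Cst9 and Clu, and all of them were also higher in every E12.5 library than in any E11.5 library.

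The genes of the list that did not rise stood out for other reasons. Fgf9, the growth factor that sustains Sox9 in the early testis, was at 98.1, 99.0 and 70.7 CPM at E11.5 and at 53.8, 65.5 and 61.1 CPM at E12.5, a fall by 0.57 on the log2 scale (adjusted p = 0.0027 in edgeR). Nell2, a secreted ligand with epidermal growth factor repeats, fell from 20.7, 14.8 and 17.0 to 0.841, 0.776 and 0.868 CPM (log2 change -4.39). The iron carrier transferrin, Trf, was at 50.3 to 56.8 and 63.8 to 69.0 CPM and was not called (log2 change 0.30, adjusted p = 0.054 in edgeR).

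Sox9, the transcription factor at the head of Sertoli differentiation, was at 1783, 2127 and 1208 CPM at E11.5 and at 2218, 1983 and 1852 CPM at E12.5. The stages overlapped, and the log2 change of 0.24 (SE 0.28) was not called (adjusted p = 0.497 in edgeR). Without E11.5 replicate 3, the estimate was -0.03. Since the reporter of this sort is read from the Sox9 locus, its level was also a condition for a cell to be collected.

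The related factor Sox8 behaved otherwise. It was at 8.69, 15.98 and 8.77 CPM at E11.5 and at 109, 94.3 and 81.9 CPM at E12.5, a rise by 3.09 on the log2 scale (SE 0.22). Of 14 Sertoli transcription factors tested, 5 rose (Sox8, Sox10, Dmrt1, Sox13 and Gata2) and 3 fell, Sox5 and Sox6 among them, with a median log2 change of 0.43. These are shares of 35.7% and 21.4%, near the 27.1% and 24.8% of all genes. Without the libraries that stood apart, 3 rose and 3 fell, and none rose among the fewer genes with at least 10 counts in every library. Leaving out a single library gave 2 without E11.5 replicate 1, E12.5 replicate 2 or E12.5 replicate 3, and 3 without E11.5 replicate 3. Dmrt1, which later keeps the male fate, was at 72.3, 81.6 and 61.0 and then at 89.3, 109 and 128 CPM. Its log2 change of 0.61 had an adjusted p of 0.02 in edgeR and lost its call in 12 of the alternatives tried.

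The factors that start the male pathway were mostly lower or not called. Sry, the Y-linked trigger (chrY:2662471-2663658, GRCm38.p6), was at 9.18, 6.50 and 7.31 CPM at E11.5 and at 0.0467, 0.345 and 0.548 CPM at E12.5. It fell by 4.58 on the log2 scale (SE 0.56, adjusted p = 3.1e-05 in edgeR), and no library of one stage reached those of the other. Of 18 genes of this list tested, 2 rose (11.1%, beside 27.1% of all genes) and 7 fell (38.9%, beside 24.8%), with a median of -0.15. Those that fell were Sry, Gadd45g, Six4, Lhx9, Emx2, Tcf21 and Nr0b1, and those that rose were Map3k4, a kinase upstream of Sry, and the insulin receptor Insr. The count of those that rose was 1 when any single XY library was left out, and without both libraries that stood apart 1 rose and 8 fell.

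Gadd45g, which acts with Map3k4 in switching on Sry, went from 326, 495 and 292 to 234, 239 and 262 CPM (log2 change -0.60, adjusted p = 0.0071 in edgeR). Lhx9, a homeobox gene that early gonad growth needs in both sexes, fell from 70.2, 48.9 and 92.1 to 2.47, 3.19 and 3.06 CPM. Emx2, another early gonad homeobox gene, fell from 71.7, 78.2 and 56.4 to 16.1, 15.7 and 17.4 CPM, by 2.07 on the log2 scale.

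Gonadal factors that persist in Sertoli cells were not called as changed. Gata4 was at 844, 1095 and 617 and then at 598, 859 and 1050 CPM, with a spread within each stage far wider than its log2 change of -0.03. Wt1 was at 1018, 860 and 662 and then at 852, 790 and 772 CPM, a log2 change of -0.07. Nr5a1, the steroidogenic factor 1 gene, was at 632, 639 and 372 and then at 696, 652 and 620 CPM (log2 change 0.26, adjusted p = 0.21 in edgeR). Their signs turned when single libraries were left out, and Wt1 was called lower (-0.30) without E11.5 replicate 3.

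**Figure D2:**
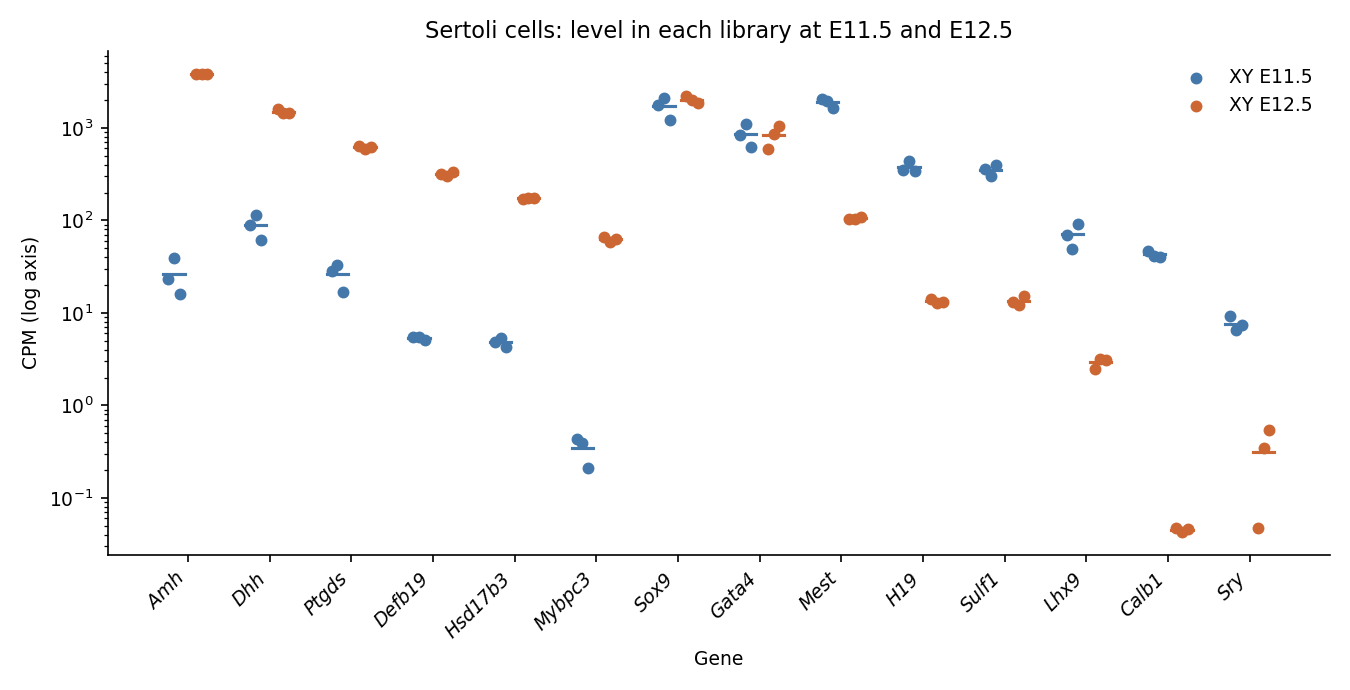
CPM of 14 genes in each of the 6 XY libraries, on a log axis, with 1 point a library and a short bar at the group mean. Amh, Dhh, Ptgds, Defb19, Hsd17b3 and Mybpc3 are higher in all E12.5 libraries, Mest, H19, Sulf1, Lhx9, Calb1 and Sry are lower, and Sox9 and Gata4 overlap between the stages.

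Genes of the coelomic epithelium and the gonadal progenitors fell together. Of 21 tested, 17 were lower (81.0%, beside 24.8% of all genes) and 3 higher (14.3%, beside 27.1%) at E12.5. The median log2 change was -4.09, and 15 of the 17 were lower by at least 2-fold. Without the libraries that stood apart, 16 were lower and 2 higher. In bulk libraries, fewer cells of a type and less RNA per cell cannot be told apart, and the interstitial and mesonephric marker sums given above fell over the same step.

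Sulf1, an enzyme that trims heparan sulfate, was at 356, 300 and 397 CPM at E11.5 and at 13.1, 12.1 and 15.1 CPM at E12.5, a fall by 4.71 on the log2 scale (SE 0.13). Pdgfra, the receptor of platelet-derived growth factor on precursor and interstitial cells, fell from 246, 209 and 244 to 12.3, 13.4 and 15.3 CPM (log2 change -4.09). These genes were even across the E11.5 replicates, whereas Upk3b, a marker of the surface epithelium, was at 16.6, 22.1 and 60.4 CPM, most in replicate 3, and then at 0.0934, 0.431 and 0.32 CPM. Sfrp1, a secreted inhibitor of WNT signals, was at 113, 291 and 463 CPM and then at 7.10, 9.92 and 10.2 CPM. The 3 members that rose were the keratins Krt7, Krt8 and Krt18. Krt8 went from 88.7, 61.5 and 67.5 to 215, 254 and 286 CPM (log2 1.79).

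All tested HOX genes but 3 fell. These homeobox genes give position along the body axis. Of 29, 26 were lower (89.7%, beside 24.8% of all genes) and none higher, with a median log2 change of -3.83. Without the libraries that stood apart, 25 were lower. Hoxc6 was at 22.2, 35.1 and 36.1 CPM and then at 3.74, 4.05 and 5.21 CPM. Hoxb6 was at 5.90 to 10.4 CPM and then at no more than 0.0914 CPM in any library. Hoxb9 was not called, at 6.14 to 6.71 and 7.40 to 8.93 CPM, nor were Hoxd10 and Hoxd11. The summed HOX level at E11.5 was 193, 271 and 371 CPM, in the same order of libraries as the interstitial sum.

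Interstitial and mesonephric genes were lower too. Of 17 interstitial and Leydig markers, 13 fell (76.5%, beside 24.8% of all genes) and 1 rose (5.88%, beside 27.1%), with a median of -4.41. Without the libraries that stood apart, 12 fell and none rose. Nr2f2, an orphan receptor of the gonadal stroma, was at 79.3, 104 and 133 CPM and then at 8.22, 7.12 and 7.77 CPM. Cdh16, a cadherin of kidney and mesonephric tubules, was at 7.90 to 9.82 CPM at E11.5 and at 0 in each E12.5 library. Of 13 mesonephric markers, 10 fell (76.9%, beside 24.8% of all genes) and 1 rose (7.69%, beside 27.1%), and 9 and 0 without those libraries. Emx2, also a gonadal gene, is among those that fell. Pax8 went from 30.5, 27.6 and 35.3 to 3.92, 7.20 and 6.08 CPM. Ptch1, a target of hedgehog signals, is among the interstitial markers and was not called (62.8 to 114 and 89.3 to 108 CPM).

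Transcripts of the steroid-making pathway were present at E11.5, and more of them fell than rose a day later. Their summed level did not fall, at 617, 726 and 533 CPM at E11.5 and 644, 658 and 648 CPM at E12.5. Of 16 tested, 9 fell (56.25%, beside 24.8% of all genes) and 3 rose (18.75%, beside 27.1%), with a median of -1.39. Without the libraries that stood apart, the counts were 9 and 2. Star, which brings cholesterol into mitochondria, fell from 70.8, 82.8 and 76.1 to 16.6, 13.7 and 13.8 CPM (log2 change -2.38). Cyp11a1, the enzyme of the first step, fell from 147, 151 and 115 to 10.8, 10.01 and 8.22 CPM (log2 change -3.83).

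Some genes better known from the adrenal cortex went to 0. Mc2r, the receptor of corticotropin, was at 15.98, 27.7 and 25.2 CPM at E11.5 and at 0 in every E12.5 library, at least 164-fold lower against the floor of 3 counts a library. Cyp21a1, the 21-hydroxylase, went from 5.71, 8.23 and 5.67 CPM to 0 and was at least 46.7-fold lower. Fdxr, which passes electrons to mitochondrial cytochromes, moved the other way, from 55.0, 70.9 and 48.1 to 231, 245 and 252 CPM (log2 2.07). The others of the list that rose were Scarb1 (log2 1.11) and Cyp17a1 (1.75), the latter at no more than 2.15 CPM. Mrap and Fdx1, of the same list, were not called. Mrap was at 2.69 to 4.65 CPM at E11.5 and at 2.33 to 3.47 CPM at E12.5 (log2 change -0.21). The log2 change of Fdx1 was -0.15.

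None of the pre-granulosa genes, the markers of the female supporting cell, was called higher. Of 17 tested, 12 fell (70.6%, beside 24.8% of all genes), with a median of -1.44, and 11 without the libraries that stood apart. Lef1, a nuclear effector of WNT signals, went from 19.5, 22.2 and 28.7 to 1.59, 1.16 and 1.37 CPM. Runx1, a factor of supporting precursors that persists in the ovary, fell from 47.2, 39.4 and 34.7 to 13.1, 15.6 and 18.2 CPM. Foxl2, the defining ovarian factor, was at no more than 0.261 CPM in any of the 6 libraries.

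**Figure D3:**
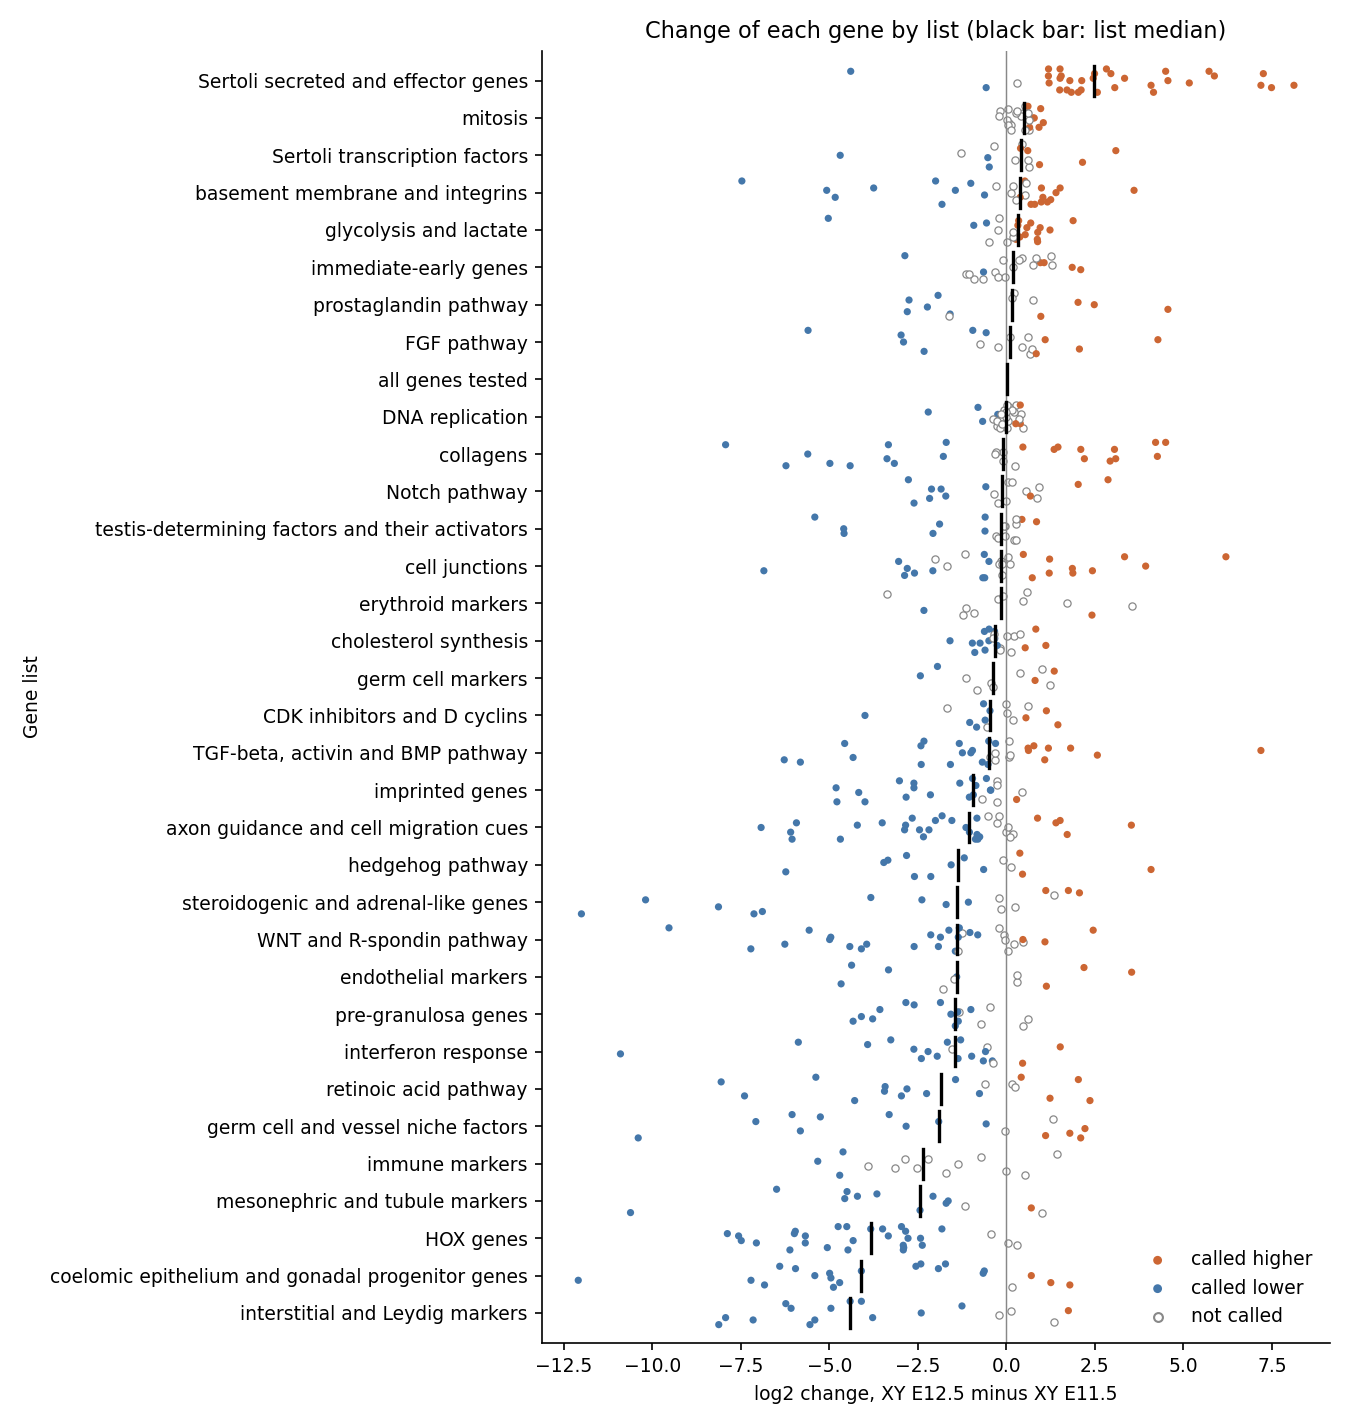
Log2 change from E11.5 to E12.5 of each tested gene in XY cells, by list, with 1 point a gene (orange if called higher, blue if called lower, open if not called) and a black bar at the median of the list. The row of all genes shows only its median (0.03). The Sertoli effector list lies to the right, and the progenitor, HOX and interstitial lists lie to the left.

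The genes with the largest fold changes were not all known from the testis. Besides the genes above, those that rose most, with at least 10 CPM and no overlap of libraries, were Miox, Slc13a2, Ppp1r1b, Gjb2, Kazald1, Cacna2d2 and Apba2. Miox was at 0.0543, 0.103 and 0.0522 CPM and then at 15.9, 22.8 and 24.7 CPM, the largest rise of those named by this rule (log2 8.12, SE 0.40). Gjb2 was at 4.05, 2.81 and 2.11 and then at 222, 223 and 216 CPM (log2 6.20, SE 0.29). Kazald1, a secreted protein that binds insulin-like growth factors, went from 4.92, 4.93 and 4.23 to 279, 251 and 239 CPM. Slc13a2, a transporter of citrate and other dicarboxylates, went from 0.109, 0.206 and 0.157 to 21.2, 18.1 and 20.7 CPM.

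The largest falls ended near or at 0. Besides Mc2r these included Ddr2, Sprr2a2, Sprr2d, Iigp1, Asb4, Angpt1, Prrx1, Calb1, Rgs5 and Syt1. Asb4, a subunit of ubiquitin ligases, was at 215, 304 and 360 CPM and then at 0.0934, 0.388 and 0.137 CPM. Calb1, a calcium buffer, was at 46.9, 40.9 and 40.7 CPM and then at the level of 1 count in each library, at least 306-fold lower. Ddr2, a collagen receptor, was at 13.2, 17.8 and 42.2 CPM and then at 0, at least 174-fold lower. Sprr2a2 and Sprr2d belong to a cluster of close copies, so how reads were divided between them is uncertain. Calb1 was even between the E11.5 replicates, while Asb4, Ddr2, Iigp1 and Rgs5 were all highest in replicate 3.

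On the scale of length-scaled transcript abundance (TPM), which allows levels of different genes to be compared, the largest gains in mean level were of Gstm2 (3599 to 9852 TPM), Gstm1 (1867 to 5336 TPM) and Amh (26.9 to 3418 TPM). Gstm1 and Gstm2 encode glutathione transferases and belong to a family of similar genes. Next came Cst9 (439 to 2175 TPM), Maged1 (2075 to 3760), the chaperone of the endoplasmic reticulum Hspa5 (2479 to 3972), Defb19 (27.3 to 1423) and the secreted protease inhibitor Serpine2 (295 to 1683). Amh and Defb19 thus came to lie among the abundant transcripts within a day. The largest losses included those of the nuclear RNA Malat1 (8684 to 2977 TPM), Kctd14 (5167 to 3341), Ifitm1 (2049 to 383), Cdkn1c (1333 to 80.2), Mest (1256 to 60.7), Peg3 (1090 to 164) and Tmsb4x (998 to 124). Cdkn1c was uneven at E11.5, at 277, 1114 and 1913 CPM, so its mean there rests on replicates 2 and 3, and at E12.5 it was at 90.7, 51.0 and 66.2 CPM.

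Among ligands of the FGF family, Fgf18 rose where Fgf9 fell. Fgf18 was at 0.408, 0.336 and 0.261 CPM and then at 9.01, 5.18 and 5.62 CPM (log2 4.28, SE 0.28). By TPM the means of Fgf9 were 83.3 and 47.7 and those of Fgf18 were 0.577 and 10.2, so Fgf9 was still the more abundant at E12.5. Of the receptors, Fgfr1, Fgfr2 and Fgfr3 fell, Fgfr2 from 25.3, 48.7 and 58.7 to 7.05, 9.19 and 10.3 CPM, and Fgfr4 was not called. Spry4, a feedback inhibitor of the pathway, went from 15.6, 18.2 and 11.7 to 61.5, 63.9 and 65.1 CPM. Its relative Spry2 also rose (log2 1.10), but Spry1 fell (log2 change -0.95), and Spred1, Spred2, Dusp6, Etv4 and Etv5 were not called. In all, 4 of 17 genes rose (23.5%) and 6 fell (35.3%), beside 27.1% and 24.8% of all genes, and 4 and 5 without the libraries that stood apart.

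Of 30 TGF-beta, activin and BMP genes tested, 8 rose (26.7%, near the 27.1% of all genes) and 16 fell (53.3%, beside 24.8%). Without the libraries that stood apart, the counts were 8 and 13. Those that rose were the hormone Amh, its receptor Amhr2, the inhibin subunits Inha and Inhbb, the receptors Acvr1b and Bmpr2, the inhibitory Smad7 and Bmp7, with Amhr2 at 274, 257 and 197 and then at 557, 496 and 493 CPM. Members of one family went both ways: the ligand Bmp7 rose from 26.3, 29.8 and 19.2 to 42.2, 43.5 and 43.4 CPM while Bmp2 and Bmp4 fell, and the activin subunit Inhba (log2 change -2.40) and the receptor Acvr1 (-0.52) fell. The activin antagonist follistatin, Fst, fell from 3.83, 3.12 and 6.03 to 0.0467, 0.259 and 0.32 CPM. Bmp4 went from 24.1, 32.8 and 57.8 to 0.187, 1.04 and 0.777 CPM, and Tgfb2 from 18.8, 27.5 and 47.9 to 1.31, 1.64 and 1.01 CPM. Id1, Id2, Id3 and Id4, which respond to BMP signals, were all lower, with Id1 lowest in E12.5 replicate 1 (21.2, 61.6 and 72.9 CPM).

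In the hedgehog pathway the ligand Dhh rose, and most other genes were lower. Of 14 tested, 9 fell (64.3%, beside 24.8% of all genes) and 3 rose (21.4%, beside 27.1%). The others that rose were Hhat, which acylates the ligand, and Disp1, which releases it. Without the libraries that stood apart, 1 rose and 8 fell, and leaving out E11.5 replicate 1 or E12.5 replicate 1 alone also left 1. The receptor Ptch1 (log2 change 0.13) and the co-receptor Cdon (-0.08) were not called. Gas1, another co-receptor, was at 53.0, 71.3 and 94.2 CPM and then at 4.16, 6.04 and 9.64 CPM. Gli1, a transcriptional target of the pathway, was at 2.45, 4.75 and 7.57 CPM and then at no more than 0.0914 CPM.

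Genes of the WNT and R-spondin pathway, which promotes the ovarian fate, were mostly lower, antagonists of the pathway included. Of 30 tested, 19 fell (63.3%, beside 24.8% of all genes) and 3 rose (10%, beside 27.1%), with a median of -1.40. Without the libraries that stood apart, 17 fell and 2 rose. The list mixes genes that promote and genes that oppose the pathway, so these counts give no direction of signaling. Among the largest falls were the antagonists Dkk2 (log2 change -9.52), Sfrp2 (-7.21) and Dkk1 (-6.25), while the antagonist Wif1 was not called. Dkk2 went from 3.04, 2.53 and 6.81 CPM to 0 in each library, and Dkk1 from 1.63, 1.96 and 4.57 to no more than 0.0914 CPM. Both ended under the floor of 3 counts, so the sizes of these 2 changes are uncertain. Wnt4 fell from 12.3, 11.6 and 16.3 to 5.65, 4.62 and 5.44 CPM, Rspo1 from 2.45, 3.17 and 3.13 to 1.35, 0.518 and 0.548 CPM, and the pathway target Axin2 from 5.27, 5.50 and 6.03 to 2.43, 2.20 and 1.55 CPM. Wnt6 went against this, from 229, 254 and 151 to 1166, 1156 and 1150 CPM (log2 2.45, SE 0.21).

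Of 18 Notch genes, 3 rose (16.7%, beside 27.1% of all genes) and 7 fell (38.9%, beside 24.8%), with a median of -0.11, and 2 and 6 without the libraries that stood apart. Hes5, a target of Notch, rose from 4.27, 7.90 and 5.69 to 37.3, 46.8 and 46.8 CPM. Its relatives Hes1 and Hey1 fell, Hey1 from 56.0, 58.5 and 51.0 to 15.1, 15.1 and 15.9 CPM. Lfng, which modifies Notch receptors, rose from 5.24, 4.96 and 3.86 to 17.5, 20.4 and 19.6 CPM.

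Genes that handle retinoic acid, the signal that starts meiosis in fetal ovaries, were more often lower than higher. Of 18 tested, 11 fell (61.1%, beside 24.8% of all genes) and 4 rose (22.2%, beside 27.1%). Without the libraries that stood apart, the counts were 11 and 3. Enzymes of breakdown and receptors each went both ways. Cyp26b1, the enzyme that degrades retinoic acid in the fetal testis, was at 71.0, 87.6 and 53.5 CPM and then at 274, 309 and 286 CPM (log2 2.03). Its relative Cyp26a1 fell from 8.18, 7.02 and 6.11 to 1.03, 0.647 and 1.05 CPM (log2 change -2.96). Rarb, a receptor and target of retinoic acid, was at 5.98, 6.09 and 16.3 CPM and then at 0 in 2 libraries and at 0.0863 CPM in the other, at least 67.4-fold lower. Those that rose were Cyp26b1, the receptors Rara (log2 1.23) and Rxra (0.42) and the retinaldehyde dehydrogenase Aldh1a1 (67.6 to 98.8 and then 393 to 508 CPM). The reductase Dhrs3 fell from 139, 148 and 151 to 23.3, 19.9 and 19.4 CPM.

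Of 13 prostaglandin genes tested, 4 rose (30.8%, beside 27.1% of all genes) and 5 fell (38.5%, beside 24.8%), but without the libraries that stood apart 3 rose and 3 fell. Besides Ptgds, a synthase of prostaglandin E2, Ptges, rose from 2.77, 4.13 and 3.45 to 18.5, 16.7 and 22.8 CPM. Of the other synthases of prostaglandin E2, Ptges2 was called lower, at 9.05, 25.2 and 36.1 and then 6.91, 6.43 and 10.1 CPM, with overlap between the stages, and Ptges3 was not called (log2 change 0.16). The cyclooxygenase Ptgs1, which acts before these synthases, fell from 2.23, 2.30 and 3.92 to 0.233, 0.992 and 0.548 CPM.

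Collagens were called in both directions. Of 26 tested, 11 rose and 10 fell, and 10 in each direction by at least 2-fold. These are shares of 42.3% and 38.5%, beside 27.1% and 24.8% of all genes, and without the libraries that stood apart 9 rose and 9 fell. Those that rose included collagens of basement membranes and of cartilage. Col18a1 was at 851, 987 and 386 CPM and then at 6032, 5960 and 4967 CPM (log2 2.93). Col4a1 went from 49.8, 57.4 and 28.2 to 206, 206 and 170 CPM. Col2a1 and Col9a3, cartilage collagens that SOX9 controls in chondrocytes, were at 21.5, 32.0 and 27.5 and then 504, 574 and 483 CPM (log2 4.27), and at 92.7, 107 and 47.4 and then 1791, 1978 and 1810 CPM (log2 4.50). Fibrillar collagens of stroma fell, with Col1a1 at 236, 437 and 565 and then at 0.56, 2.54 and 1.92 CPM, in the order of the interstitial sum at E11.5.

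Of 27 basement membrane and integrin genes, 12 rose (44.4%, beside 27.1% of all genes) and 9 fell (33.3%, beside 24.8%), and 10 and 9 without the libraries that stood apart. The laminin chain Lama3 rose from 3.42, 3.59 and 2.32 to 39.6, 37.1 and 37.2 CPM, while Lama2 fell from 9.78, 12.7 and 20.3 to no more than 0.129 CPM. Fibronectin, Fn1, fell from 100.5, 123 and 287 to 5.56, 6.04 and 6.31 CPM. Dystroglycan, Dag1, a laminin receptor, rose from 578, 649 and 385 to 1577, 1538 and 1505 CPM.

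Of 29 cell junction genes 10 were higher and 10 lower, 34.5% each beside 27.1% and 24.8% of all genes. The counts were 9 and 8 without the libraries that stood apart, and 16 were lower with plain library totals. Those that rose included the tight junction claudin Cldn11, known from the later Sertoli barrier, at 12.4, 11.8 and 8.64 and then 103, 112 and 118 CPM. Jam2 rose from 2.72, 3.72 and 5.33 to 63.2, 59.2 and 57.9 CPM, and connexin 43, Gja1, from 506, 517 and 450 to 1892, 1781 and 1743 CPM. Cdh11, a mesenchymal cadherin, fell from 116, 111 and 184 to 0.654, 1.29 and 1.599 CPM.

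Cues for migrating cells and for germ cells and vessels were mostly lower. Of 35 axon guidance genes 23 fell (65.7%, beside 24.8% of all genes) and 5 rose (14.3%, beside 27.1%). Of 15 niche factors 9 fell (60%) and 4 rose (26.7%, near the 27.1% of all genes). These counts were 19 and 5, and 9 and 4, without the libraries that stood apart. Cxcl12, which draws germ cells to the gonad, was at 142, 194 and 292 CPM and then at 2.62, 3.19 and 3.66 CPM (log2 change -6.05). Angpt1, a ligand that stabilises vessels, was at 21.9, 23.4 and 38.02 CPM and then at no more than 1 count, at least 198-fold lower. Signals to other cells that rose were Gdnf, a factor of spermatogonial stem cells, from 17.8, 9.83 and 7.94 to 33.5, 46.0 and 43.7 CPM, Pdgfa, from 22.5, 24.9 and 20.3 to 122, 95.0 and 98.7 CPM, and Kitl, the germ cell survival factor. Kitl went from 419, 372 and 329 to 859, 796 and 762 CPM (log2 1.11, SE 0.11).

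Cell cycle genes gave counts that turned on single libraries. Of 24 mitosis genes 7 rose (29.2%, beside 27.1% of all genes) and none fell, with a median of 0.50. Cdk1 was at 71.1, 87.2 and 103 CPM and then at 83.0, 166 and 164 CPM, with E12.5 replicate 1 within the range of E11.5. Without the libraries that stood apart 12 rose, 2 without E11.5 replicate 1, E11.5 replicate 2 or E12.5 replicate 3, 1 without E12.5 replicate 2, 2 with plain library totals and 1 with limma on TPM. Of 28 DNA replication genes 3 rose (10.7%) and 4 fell (14.3%), and 3 and 2 without the libraries that stood apart. None rose without E11.5 replicate 1, E12.5 replicate 2 or E12.5 replicate 3 and 1 without E11.5 replicate 2, and 7 fell without E11.5 replicate 1 or E11.5 replicate 2 and 13 with plain library totals. Cyclin E1, Ccne1, fell from 30.0, 39.5 and 46.4 to 8.41, 7.59 and 9.14 CPM. Cyclin D1, Ccnd1, fell from 228, 255 and 221 to 125, 139 and 130 CPM.

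The same day in XX supporting cells served as a comparison, through the difference between the log2 changes in XY and XX. This difference was called for 3325 of 16190 genes (20.5%) with the change higher in XY and for 3167 (19.6%) with it lower, in the same edgeR fit. The XX E11.5 libraries held 13683, 4446 and 34504 CPM of erythroid markers and 401, 217 and 639 CPM of immune markers, against 799 to 1827 and 89.0 to 91.1 CPM in XX E12.5. The part of this RNA in the differences was not tested.

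Of the Sertoli effector genes, 27 of 34 had a step higher in XY and 1 a lower one, beside 20.5% and 19.6% of all genes. In XX the median log2 change of the list was -0.16. The list was drawn up knowing this cell type's genes, so this count is no independent evidence either. Tinagl1, a secreted matrix protein, showed the smallest p of those with a higher step in XY: it rose from 39.2, 49.5 and 33.9 to 460, 487 and 490 CPM in XY and was at 20.2, 21.9 and 22.6 and then 15.6, 13.55 and 15.3 CPM in XX. The difference of the changes was 4.09 (SE 0.14). Next were Vnn1, a pantetheinase, with a difference of 3.96, and Inha (2.999), Padi2 (7.86) and Cltb (3.58). Inha was the higher in XX at E11.5 (224, 163 and 198 CPM against 78.7 to 88.5 in XY) and the higher in XY at E12.5 (151, 140.5 and 144 CPM in XX).

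Among genes that fell in XY, Sulf1 rose in XX from 324, 422 and 349 to 698, 581 and 674 CPM, a difference of -5.54 between the changes (SE 0.17). Mest was at 742, 914 and 984 and then 1448, 1608 and 1124 CPM in XX, while in XY it went from 2061, 1963 and 1646 to 103, 104 and 108 CPM (difference -4.83). Myl9 had a difference of -4.63 and Calb1 of -8.91, with Calb1 still at 103, 84.2 and 70.0 CPM in XX E12.5. In XY E12.5 Calb1 was under the floor of 3 counts, so the size of its difference is uncertain. At E11.5 Calb1 was higher in XX (136 to 166 CPM) and Mest was higher in XY, so the sexes did not start from equal levels.

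Other changes of the XY step did not differ from XX by this test. Gstm1 rose in both, with a difference of 0.08 (SE 0.15, adjusted p = 0.7 in edgeR), although its level was far lower in XX (123 to 155 and then 374 to 457 CPM, by this scale, against 1198 to 1561 and then 4028 to 4885 in XY). Cxcl12 fell in both, in XX from 93.7, 17.2 and 251 to 2.84, 4.77 and 4.26 CPM, and Cyp11a1 fell in XX from 218, 95.1 and 220 to 21.8, 22.6 and 24.8 CPM. The difference was -1.12 (SE 0.84) for Cxcl12 and -0.88 (SE 0.44, adjusted p = 0.12 in edgeR) for Cyp11a1, so equal steps were not shown. Star fell in both and more in XY, by -0.70.

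**Figure D4:**
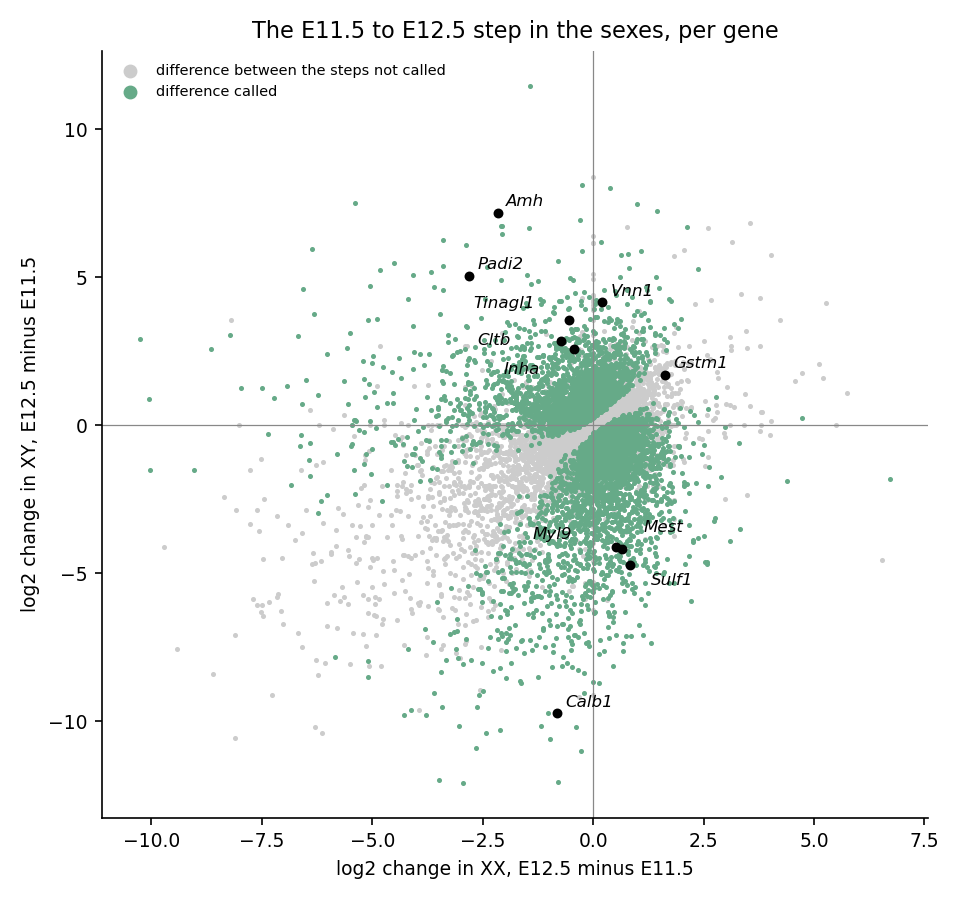
Log2 change from E11.5 to E12.5 in XY (vertical) against XX (horizontal), with 1 point for each of 16190 genes, green where the difference between the changes was called. Genes named in the text are in black: Amh and Padi2 lie at upper left, Gstm1 near equal changes, and Sulf1, Mest and Myl9 below the horizontal line.

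The E12.5 levels can be set beside those of XY E13.5 and E15.5, which come from the same line, without testing that later step, since it shares the E12.5 libraries. Amh was near its later level at E12.5, with 4302 to 5117 CPM at E13.5 and 4279 to 4377 at E15.5. Mybpc3 was still below it, with 194 to 237 and then 272 to 306 CPM. Hsd17b1 had 73.2 to 79.1 and then 233 to 250.5 CPM, and Clu 4330 to 4661 and then 7428 to 7982 CPM.

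Some genes that rose at E12.5 were lower again later. Col2a1 had 115 to 151 CPM at E13.5 and 6.83 to 8.37 at E15.5, and Gjb2 had 207 to 218 and then 44.9 to 49.1 CPM. Kitl had 508 to 512 CPM at E13.5 and 273 to 326 at E15.5. Of genes that fell, Fgf9 went on to 20.4 to 21.2 and then 6.17 to 7.09 CPM, and Peg3 to 260 to 276 and then 127 to 137 CPM. Sulf1 stayed near its E12.5 level (17.8 to 20.4 and then 13.1 to 16.3 CPM), and Mest was at 70.5 to 82.4 and then 38.1 to 47.0 CPM.

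**Figure D5:**
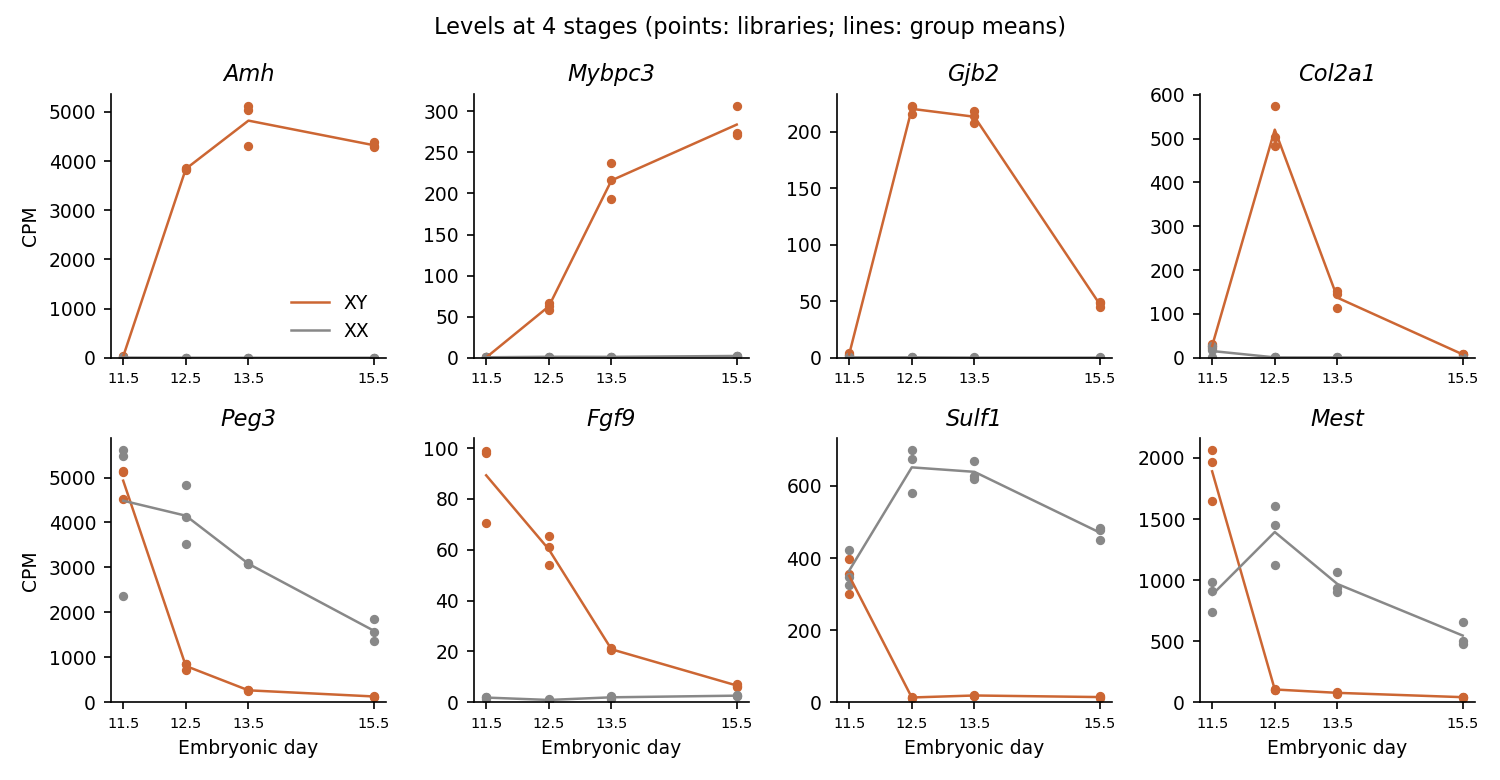
CPM of 8 genes in XY and XX libraries at the 4 stages, on linear axes from 0, with 1 point a library and a line through the group means. In XY, Amh reaches near its later level at E12.5, Mybpc3 rises further, Gjb2 and Col2a1 are highest at E12.5 or E13.5, and Peg3 and Fgf9 decline at each stage.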

How the data were processed

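RNA of sorted XY and XX supporting cells was analysed from gene tables of 24 libraries. The authors deposited estimated counts per gene and TPM (transcript abundance scaled by length). Per the submitters' processing notes the genome build was mm10; the aligner, the counting program and the use of strand are not given in the sources used here. Of the count values 17.5% were not whole, and all were rounded. Genes that overlap or have near-identical copies are therefore uncertain.

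Of 32040 genes, 16190 passed edgeR's filterByExpr. Counts were tested with edgeR 4.0.16 (R 4.3.3): TMM scaling, a robust quasi-likelihood fit with 1 mean for each of 8 groups of sex and stage (16 residual degrees of freedom), and Benjamini-Hochberg adjustment over all genes tested. Genes with an adjusted p under 0.05 count as called. The contrasts were XY E12.5 minus XY E11.5, and that step in XY minus the same step in XX. CPM used the same scaling. Floors of 3 counts cover counting error only, and amplified reads are not independent molecules. The scripts were tested on simulated data.

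The genes named were members of 34 lists, the 12 a direction with the largest fold change, the 8 with the largest change in TPM and the 5 with the smallest p in the XY minus XX difference. A few genes that these rules select are not reported here. The last 3 rules left out sex-chromosome label genes, mitochondrial genes and unnamed gene models. The samples and the lists were chosen with earlier results of these data known. Alternatives were DESeq2 1.42.0, its size factors, limma 3.58.1 on log2(TPM + 1) and log2(TPM + 0.1), other filters, thinning to the smallest library, a fold threshold, a replicate block, a fit of the XY libraries compared and leaving out each library. Library totals, and leaving out E11.5 replicate 3 with E12.5 replicate 1, were added after seeing the data.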

Additional observations from a re-analysis of the deposited data

Results flagged for a closer look

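For the 27 genes given here, the E11.5 to E12.5 step differed between XY and XX, by the test of the difference itself in edgeR (adjusted p under 0.05 over all genes tested). They are a part of the named genes with such a call, which Hsd17b1, Gjb2 and Lef1 also had. Of all genes tested, 20.5% had a higher step in XY and 19.6% a lower one. Tinagl1, Vnn1, Inha, Padi2, Cltb, Sulf1, Calb1, Myl9 and Mest were named for their small p in this same test. Groups of 3 libraries are too small for a check of outlying samples.

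Sertoli effector genes, and Padi2, Tinagl1 and Cltb outside that list, had the higher step in XY, in log2 units: Amh by 9.35, Hsd17b3 by 8.83, Padi2 by 7.86, Mybpc3 by 6.50, Dhh by 5.28, Defb19 by 4.80, Col9a3 by 4.71, Cst9 by 4.55, Ptgds by 4.31, Tinagl1 by 4.09, Vnn1 by 3.96, Cltb by 3.58, Inha by 2.999 and Clu by 1.54. The transcription factors Sox8 and Sox9 differed by 2.47 and 1.27. For Sox9 this came with no call in XY and a log2 change of -1.02 in XX, whose E11.5 libraries were at 226, 78.6 and 74.5 CPM, replicate 1 being the highest.

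The step was lower in XY for Calb1 (-8.91), Mc2r (-8.51), Sulf1 (-5.54), Lhx9 (-4.96), Mest (-4.83), H19 (-4.67), Myl9 (-4.63), Pdgfra (-3.99), Peg3 (-2.5), Nr2f2 (-2.27) and Star (-0.70). In XX, Lhx9 was at 203 to 237 and then at 265 to 293 CPM.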

How the results depend on the processing

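Under a threshold of at least 2-fold, 4149 genes were called in the XY step (1516 higher and 2633 lower) and 3859 in the difference between XY and XX. Genes called higher numbered 2880 with at least 10 counts in every library, which tests fewer genes, 2485, 2439 and 2542 with limma on log2(TPM + 1), on log2(TPM + 0.1) and with no filter, 2628 with library totals and 2918 without both libraries that stood apart. Leaving out each XY library in turn gave 7030 to 7774 genes in all, 3122 to 3528 higher and 3845 to 4246 lower. Leaving out each XX library gave 8113 to 9189 in the same XY step, 3658 to 4295 higher and 4416 to 4894 lower. The difference had 5761 to 7655 over all 12 libraries left out.

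Of 1730 pairs of a named gene and an alternative, 1701 kept direction and side of the threshold, 19 lost the call, 3 gained it and 7 changed sign. The sign changed for Sox9 without XY E11.5 replicate 3 (-0.03) and without both libraries that stood apart (-0.094), and for Nr5a1 likewise (-0.03 and -0.066). It changed for Gata4 without XY E11.5 replicate 2 (0.13) or XY E12.5 replicate 1 (0.10) and for Wt1 without XY E11.5 replicate 1 (0.0067). Over single libraries left out, the log2 change ranged from -0.03 to 0.36 for Sox9, from -0.30 to 0.13 for Gata4, from -0.30 to 0.0067 for Wt1 and from -0.03 to 0.32 for Nr5a1. Wt1 was called lower without XY E11.5 replicate 3 (-0.30), with library totals (-0.31) and without both libraries (-0.33). None of these 4 was called in the fit reported, and the cause was not tested. Of 19 lost calls 12 were of Dmrt1.

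Replicate numbers did not pair the libraries: same-numbered libraries had correlations of 0.05, -0.05 and 0.09 between their deviations in XY. With a replicate block, 8352 genes were called (4368 higher and 3984 lower) and 6444 in the difference, against 8395 and 6492. Depth limits genes under the floor of 3 counts, which was 0.0774 to 0.0815 CPM at E11.5 and 0.129 to 0.14 CPM at E12.5.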

Other observations

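Imprinted genes of the fetal growth network were lower at E12.5. Of 23 tested 17 fell (73.9%, beside 24.8% of all genes) and 1 rose (4.35%, beside 27.1%), with a median log2 change of -0.95. Without the libraries that stood apart, 13 fell and none rose. H19, a growth-restraining RNA, was at 348, 441 and 340 CPM at E11.5 and at 14.1, 12.9 and 13.2 CPM at E12.5 (log2 change -4.81). Its neighbour Igf2, a growth factor, went from 115, 103 and 105 to 12.2, 17.99 and 15.2 CPM. Peg3, an imprinted zinc finger gene, fell from 5120, 5151 and 4520 to 859, 851 and 716 CPM, and Zim1 and Usp29, from the same imprinted domain, fell with it, Usp29 from 71.7, 59.3 and 77.2 to 10.6, 12.9 and 10.6 CPM. Snrpn was the member that rose, by 0.29 on the log2 scale.

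Genes of the interferon response were lower in 15 of 20 cases (75%, beside 24.8% of all genes) and higher in 2 (10%, beside 27.1%). Without the libraries that stood apart, the counts were 13 and 2. The count that rose was 1 without E12.5 replicate 3. Ifitm1, also a surface protein of early embryonic cells, went from 848, 728 and 614 to 147, 162 and 164 CPM, while Bst2 rose from 46.5, 50.3 and 35.1 to 123, 124 and 132 CPM. Of 23 genes of glycolysis and lactate handling 14 rose (60.9%, beside 27.1% of all genes) and 3 fell (13.0%, beside 24.8%), with a median of 0.33. The count that rose was 8 without E11.5 replicate 3 alone, 8 without both libraries that stood apart, 8 with plain library totals and 7 with limma on TPM. Hexokinase 1, Hk1, rose from 86.2, 99.0 and 69.5 to 327, 320 and 294 CPM, and the aldolase Aldoa from 1184, 1162 and 911 to 2222, 1908 and 1880 CPM. Of 22 genes of cholesterol synthesis 11 fell (50%, beside 24.8% of all genes) and 3 rose (13.6%, beside 27.1%). Most of these changes were small, with a median of -0.33 and only 1 gene in each direction changed by at least 2-fold. Without the libraries that stood apart, the counts were 12 and 3. Sc5d fell from 42.7, 44.1 and 44.8 to 15.3, 15.2 and 13.2 CPM, while Dhcr7, which acts on its product, rose from 42.7, 44.9 and 37.8 to 87.0, 94.9 and 90.1 CPM.

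Immediate-early genes, which respond within minutes to stress and tissue handling, summed to 6090, 5745 and 7068 CPM at E11.5 and to 4704, 8284 and 8765 CPM at E12.5. Of 21 tested, 4 rose and 2 fell (9.52%), beside 27.1% and 24.8% of all genes. Without both libraries that stood apart 4 rose and none fell, and 7 rose with only the XY libraries compared in the fit. The count that rose was 2 without E11.5 replicate 2, E11.5 replicate 3, E12.5 replicate 2 or E12.5 replicate 3, and the count that fell was 1 without E11.5 replicate 3, E12.5 replicate 1 or E12.5 replicate 2. Klf6 was at 853, 512 and 790 CPM and then at 122, 426 and 483 CPM, with E12.5 replicate 1 far below the others of its stage, and was not called (adjusted p = 0.122 in edgeR).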
